A study of Mus musculus with 10 samples.

Results

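Expression was compared between 2 SMB56 libraries treated with THZ1 and 2 treated with GDC-0449, gene by gene, for the 7417 genes that stand in both deposited SMB56 tables, of 13976 genes in any of the series' 3 tables. Genes were matched by Ensembl ID, and the counts came from the THZ1 columns of one table and the GDC-0449 columns of the other. SMB56 is a neurosphere line of spontaneous medulloblastoma cells from Ptch+/- mice, used at passages 10-15, so a Ptch+/- genotype is common to all groups. The groups were THZ1 at 0.1 µM, GDC-0449 at 1 µM and DMSO, each for 8 hours and with 2 libraries. The doses differ, so compound and dose cannot be told apart. The 2 DMSO libraries entered the fit and are given as the vehicle level, against which no test is reported. The rest of the 10 libraries are of SMB56-shSufu, which was not given GDC-0449. Nothing in the labels ties the numbered replicates to separate cultures, so a p-value here reflects the spread between libraries of 1 line, possibly a technical one.

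THZ1 binds CDK7 covalently. CDK7 is the kinase of the general transcription factor TFIIH, which phosphorylates the C-terminal domain of RNA polymerase II, and it also activates cell cycle CDKs. GDC-0449 (vismodegib) inhibits SMO, the membrane protein that PTCH1 holds inactive until a hedgehog ligand binds. Active SMO releases GLI transcription factors from SUFU, and GLI proteins switch on Gli1, Ptch1, Mycn and cyclin genes, a programme that drives proliferation of cerebellar granule neuron progenitors, the cells from which this kind of medulloblastoma arises.

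The libraries held 11931059 and 10614268 counts with THZ1, 14517138 and 13131292 with GDC-0449, and 12738482 and 13170421 with DMSO. The shared genes took 94.4% to 94.5% of these counts with THZ1 and 83.3% to 83.4% with GDC-0449, as each library was counted over its own table. In the authors' deposited table for THZ1, all but 8 of 10007 genes carry an adjusted p-value below 0.05, so the genes were selected on the THZ1 outcome and the shares below do not hold for all genes. Levels are TMM-normalized CPM, counts scaled to the size of their library, and TMM assumes that most genes do not change. The labels name no spike-in. Under TMM the median log2 fold change of all genes, THZ1 over GDC-0449, was -0.18. It was -0.02 by RLE, -0.52 by the upper quartile, -0.81 by library size, -1.14 when libraries were scaled to their ribosomal protein counts and -1.59 when scaled to their mitochondrially encoded counts, and -0.85 in the deposited FPKM values. The sign of a small fold therefore belongs to the scaling, and list medians are given with the number of members above the median gene, which the scalings of whole libraries hardly move. Of 8 markers of medulloblastoma and the granule lineage, 6 were measured (Gli1, Barhl1, Zic1, Neurod1, Mycn and Atoh1), with summed levels of 5102 and 5235 CPM with THZ1, 2909 and 2888 CPM with GDC-0449 and 2644 and 2624 CPM with DMSO. Of 6 astrocyte markers 2 were measured, Slc1a2 and Slc1a3, which summed to 494 and 501 CPM with THZ1, 771 and 829 CPM with GDC-0449 and 655 and 665 CPM with DMSO. The part of these summed levels in the results was not tested. None of the listed markers of microglia, endothelium and fibroblasts is among the 7417 genes, where they were not analysed.

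At 8 hours the compounds left very different transcriptomes. Of 7417 genes, 6699 (90.3%) differed between THZ1 and GDC-0449 by edgeR's quasi-likelihood F test at an adjusted p under 0.05, 2932 of them higher with THZ1 (39.5%) and 3767 lower (50.8%). The counts of called list members given below are to be read beside these shares. At least 2-fold differences were called for 1449 genes higher (19.5%) and 1377 lower (18.6%), and at least 4-fold differences for 176 (2.37%) and 225 (3.03%). The interquartile range of the log2 folds ran from -0.81 to 0.86. Both THZ1 libraries stood above both GDC-0449 libraries for 3034 genes (40.9%) and below them for 3978 (53.6%). The split by direction moved with the scaling, with 3267 genes called higher and 3216 lower by RLE, 2090 and 4853 by library size, 1119 and 5365 with ribosomal protein scaling, and 357 and 6360 with mitochondrial scaling.

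**Figure D1:**
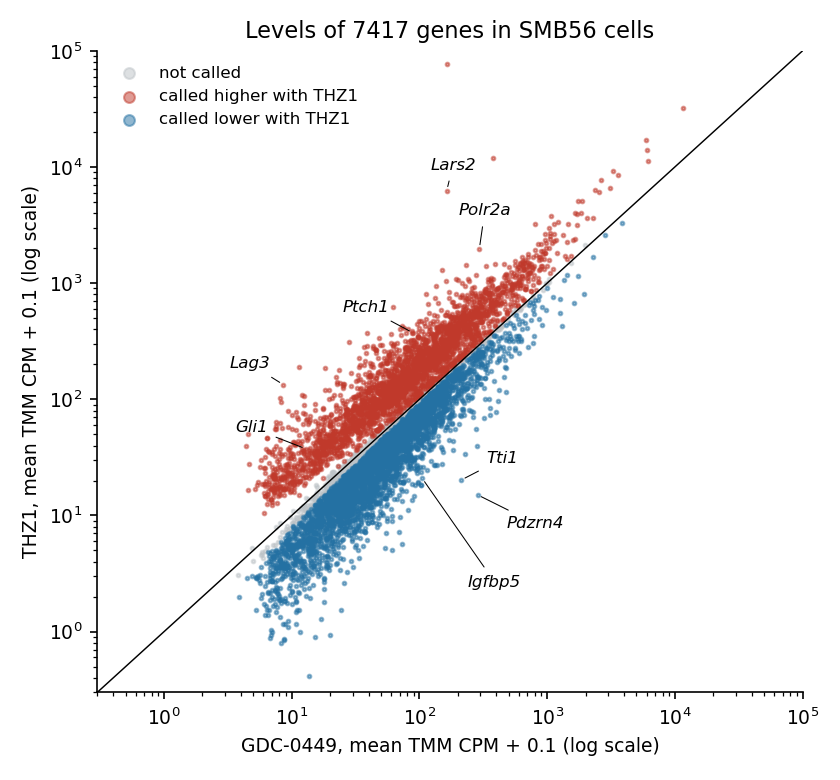
Mean TMM-normalized CPM of each of the 7417 genes with THZ1 (y axis) against GDC-0449 (x axis), both on a log scale after adding 0.1, with the line of equal level in black. Red points are the 2932 genes called higher with THZ1, blue points the 3767 called lower and grey points those not called. Lars2, Lag3, Polr2a, Ptch1 and Gli1 lie above the line, and Pdzrn4, Tti1 and Igfbp5 lie below it.

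The hedgehog targets stood higher with THZ1 than with the SMO inhibitor. Of 14 listed targets 5 were measured, and 4 of them were higher with THZ1 and 1 lower, with a median log2 fold of 1.54 against -0.18 for all genes, and 4 of 5 above the median gene. Gli1, a transcription factor whose transcript is the usual readout of the pathway, had 36.1 and 38.5 CPM with THZ1, 11.8 and 13.9 CPM with GDC-0449 and 175 and 171 CPM with DMSO. Both compounds thus left it below both DMSO libraries, under TMM, library size, ribosomal protein and mitochondrial scaling alike, with GDC-0449 lowest under TMM. Its difference between the compounds was 2.91-fold (log2 fold 1.54 ± 0.099, edgeR adjusted p 2.1e-13), and it was 0.13 with an edgeR adjusted p of 0.42, no longer called, under mitochondrial scaling.

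Ptch1, the receptor that holds SMO inactive, had 364 and 383 CPM with THZ1, 89.0 and 88.6 CPM with GDC-0449 and 222 and 218 CPM with DMSO. The THZ1 libraries were the highest of the 6 and the GDC-0449 libraries the lowest under TMM. Against DMSO the THZ1 libraries were above under TMM and library size and below under ribosomal protein and mitochondrial scaling. Ptch1 was 4.20-fold higher with THZ1 than with GDC-0449 (2.07 ± 0.045, edgeR adjusted p 1.1e-22) and stayed called under every scaling run.

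Mycn, the proto-oncogene through which hedgehog signalling drives progenitor proliferation, had 711 and 767 CPM with THZ1, 237 and 224 CPM with GDC-0449 and 367 and 365 CPM with DMSO. It followed the order of Ptch1, highest with THZ1 and lowest with GDC-0449 under TMM, and was 3.21-fold higher with THZ1 (1.68 ± 0.045, edgeR adjusted p 6.5e-21). With ribosomal protein scaling its THZ1 libraries overlapped DMSO, and with mitochondrial scaling they were below. Ccnd2, the G1 cyclin D2, was the target that was lower with THZ1, at 753 and 753 CPM with THZ1, 1069 and 1153 CPM with GDC-0449 and 1144 and 1151 CPM with DMSO (log2 fold -0.56 ± 0.046, edgeR adjusted p 2.6e-11). Ccnd1, Hhip, Gli3 and Smo were not analysed here.

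Ratios of counts within a library do not depend on scaling. Ptch1 had 10.1 and 9.95 counts per Gli1 count with THZ1, 7.56 and 6.36 with GDC-0449, and 1.27 in both DMSO libraries. Mycn had 19.7 and 19.9 per Gli1 count with THZ1, 20.1 and 16.1 with GDC-0449, and 2.10 and 2.14 with DMSO. Both ratios were higher than in either DMSO library with THZ1 and with GDC-0449, which shows unequal change of these genes within each treatment. Gli2 went another way, with 0.805 and 0.777 counts per Gli1 count with THZ1, 4.66 and 3.72 with GDC-0449, and 0.515 and 0.508 with DMSO.

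**Figure D2:**
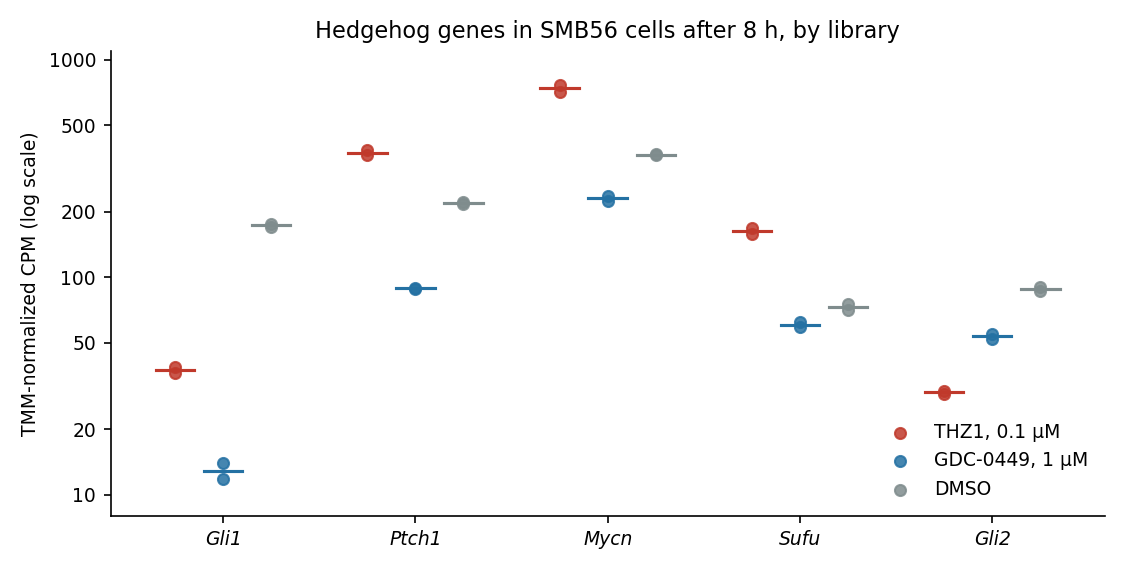
TMM-normalized CPM (log axis) of 5 hedgehog genes in each library, for THZ1 (red), GDC-0449 (blue) and DMSO (grey), with points for libraries and bars for the mean of 2. Under this scaling Ptch1, Mycn and Sufu are highest with THZ1 and lowest with GDC-0449, Gli1 is highest with DMSO, and Gli2 is lowest with THZ1. With mitochondrial scaling the THZ1 libraries of Ptch1, Mycn and Sufu lie below DMSO.

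Among the pathway's own components the compounds differed in both directions, as they did over all genes (39.5% higher and 50.8% lower). Of 15 measured, 6 were higher with THZ1 and 9 lower, a median log2 fold of -0.50, with 6 of 15 above the median gene. Sufu, the inhibitor that binds GLI proteins, had 159 and 168 CPM with THZ1, 61.9 and 58.8 CPM with GDC-0449 and 75.3 and 70.6 CPM with DMSO and was 2.70-fold higher with THZ1 (1.43 ± 0.057, edgeR adjusted p 1.4e-17; log2 fold 0.026, edgeR adjusted p 0.84, with mitochondrial scaling). Gli2, the main activator among GLI proteins, had 29.1 and 29.9 CPM with THZ1, 54.9 and 51.8 CPM with GDC-0449 and 90.1 and 86.7 CPM with DMSO. It was 1.81-fold lower with THZ1 (-0.86 ± 0.078, edgeR adjusted p 2e-10), and lowest with THZ1 under each scaling set against DMSO.

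Kif7, the ciliary kinesin of the pathway, had 9.90 and 10.1 CPM with THZ1, 27 and 26.1 CPM with GDC-0449 and 25.7 and 31.3 CPM with DMSO. Iqce, a protein of the EvC zone of the cilium, had 13.8 and 13.9 CPM with THZ1, 35.4 and 43.0 CPM with GDC-0449 and 34.7 and 37.7 CPM with DMSO. Their THZ1 libraries were the lowest, and the GDC-0449 and DMSO libraries lay close together. Log2 folds were -1.41 ± 0.13 and -1.49 ± 0.12 (edgeR adjusted p 3.7e-10 and 1e-11). The beta-arrestins Arrb1 and Arrb2 and the ciliary Evc and Evc2 were also lower, with log2 folds of -1.0, -0.98, -0.66 and -0.96. Prkar1a, a regulatory subunit of protein kinase A, which restrains GLI activity, had 1035 and 1089 CPM with THZ1, 479 and 472 CPM with GDC-0449 and 455 and 445 CPM with DMSO and was higher with THZ1 (1.16 ± 0.043, edgeR adjusted p 3.1e-18). The hedgehog co-receptor genes Gas1 and Boc had log2 folds of 0.95 and 0.14, both called.

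A pair of lists came from earlier results on the GDC-0449 and DMSO libraries of this series, so they describe and test nothing. All 10 measured genes of those GDC-0449 lowered most were higher with THZ1 than with GDC-0449 (median 1.61), whereas of 8 that GDC-0449 raised most 3 were higher and 5 lower (median -0.88). Sox9, a transcription factor of neural stem cells and glia, had 128 and 130.3 CPM with THZ1, 23.8 and 26.9 CPM with GDC-0449 and 65.3 and 66.7 CPM with DMSO. Hpca, a neuronal calcium sensor, had 208 and 203 CPM with THZ1, 54.4 and 56.2 CPM with GDC-0449 and 299 and 291 CPM with DMSO. Under TMM Sox9 ran in the order of Ptch1, and Hpca in that of Gli1, with both treatments below DMSO. Adamts14, Lrp8, Rgma and Tbata also lay below DMSO with either compound, and their log2 folds between the compounds were 1.34 ± 0.089, 1.25 ± 0.080, 1.05 ± 0.097 and 0.46 ± 0.079.

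Igfbp5, a secreted binding protein of insulin-like growth factors, had 21.1 and 20.5 CPM with THZ1, 107 and 103 CPM with GDC-0449 and 56.0 and 59.8 CPM with DMSO. Rasd2, a small GTPase of neurons, had 24.9 and 29.4 CPM with THZ1, 141 and 131 CPM with GDC-0449 and 89.7 and 91.3 CPM with DMSO. The neuronal transcription factor gene Neurod6, which belongs to the neuronal list, had 9.30 and 5.30 CPM with THZ1, 38.6 and 35.2 CPM with GDC-0449 and 22.8 and 22.4 CPM with DMSO. In each, the GDC-0449 libraries were above DMSO and the THZ1 libraries below it, under TMM, library size, ribosomal protein and mitochondrial scaling. The differences between the compounds were 5.04-fold, 5.03-fold and 4.99-fold, lower with THZ1 (edgeR adjusted p 1.2e-13 for Neurod6). Igfbp5 and Rasd2 come from the list of genes that GDC-0449 raised most. Their place above DMSO with GDC-0449 was therefore set by that choice, and no p-value is given for them. Trp53inp1, Fgfr4 and Mybpc1 were lower as well (-0.76 ± 0.046, -1.01 ± 0.078 and -1.0 ± 0.11), while Flnc, Ifi30 and Ppfia2 were higher (1.56 ± 0.11, 0.75 ± 0.093 and 0.55 ± 0.068).

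The transcript of CDK7, the kinase named above, did not differ detectably under TMM. Cdk7 had 70.1 and 64.1 CPM with THZ1, 66.2 and 66.9 CPM with GDC-0449 and 64.8 and 64.0 CPM with DMSO, a log2 fold of 0.015 (95% interval -0.12 to 0.15, edgeR adjusted p 0.83). That depends on scaling, with log2 folds of 0.18 by RLE (edgeR adjusted p 0.014) and -1.40 by mitochondrial scaling. Of the 6 measured genes of CDK7 and TFIIH, 2 were higher and 3 lower, with a median of -0.077, above 0 by RLE and with DESeq2, and 4 of 6 above the median gene. Over all genes 39.5% were higher and 50.8% lower. The helicase gene Ercc3 (0.95 ± 0.062) and Gtf2h1 (0.69 ± 0.058) were higher, and Gtf2h2 (-0.87 ± 0.091) and Gtf2h3 (-0.87 ± 0.072) were lower.

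RNA polymerase II was split by subunit. Polr2a, which encodes the largest subunit with the C-terminal domain that CDK7 phosphorylates, had 1847 and 2099.9 CPM with THZ1, 294 and 294 CPM with GDC-0449 and 295 and 294 CPM with DMSO. The GDC-0449 and DMSO libraries were alike and the THZ1 libraries far above both, and Polr2a was 6.70-fold higher with THZ1 (2.75 ± 0.053, edgeR adjusted p 1.7e-23). Polr2b, the second largest subunit, and Polr2d were also higher (0.96 and 1.25), while the other 6 measured, Polr2c, Polr2e, Polr2i, Polr2j, Polr2k and Polr2m, were lower, so the median of 9 was -0.62 with 3 above the median gene. Polr2j had 19.0 and 17.9 CPM with THZ1, 37.4 and 35.8 CPM with GDC-0449 and 41.3 and 37.2 CPM with DMSO. Polr2a had 97.4 and 117 counts per Polr2j count with THZ1, against 7.87 and 8.23 with GDC-0449 and 7.16 and 7.91 with DMSO.

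Genes that control elongation stood mostly higher with THZ1. Of 18, 12 were higher, 2 lower and 4 not called, with a median of 0.83 (below 0 with FPKM, ribosomal protein and mitochondrial scaling) and 17 above the median gene. Supt5, a subunit of the pausing and elongation factor DSIF, had 775 and 755 CPM with THZ1, 213 and 205 CPM with GDC-0449 and 219 and 215 CPM with DMSO and a log2 fold of 1.87 ± 0.041 (edgeR adjusted p 1.2e-22). Ccnt1, the cyclin of the elongation kinase P-TEFb, had 485 and 494 CPM with THZ1, 204 and 209 CPM with GDC-0449 and 196 and 196 CPM with DMSO (1.25 ± 0.039), and its kinase partner Cdk9 had a log2 fold of 0.97. Nelfe, a subunit of the pausing complex NELF, went the other way, with 26.1 and 26.1 CPM with THZ1, 78.8 and 82.4 CPM with GDC-0449 and 93.9 and 93.1 CPM with DMSO (-1.62 ± 0.074, edgeR adjusted p 2.2e-16). Larp7, which keeps P-TEFb in its inactive 7SK complex, was not called (log2 fold 0.002, 95% interval -0.11 to 0.12). Of 2 further kinase genes on the list, Cdk13 was higher (1.07 ± 0.042, edgeR adjusted p 1.2e-17). The other, Cdk12, was not called (log2 fold 0.037, 95% interval -0.06 to 0.13). Nelfa, called lower at -0.17 ± 0.076, lost its call without either THZ1 library or GDC-0449 replicate 2 (edgeR adjusted p 0.085 to 0.29), in the fit of all 10 libraries (0.15), by RLE (log2 fold -0.009, edgeR adjusted p 0.91) and with DESeq2 (-0.010, DESeq2 adjusted p 0.93).

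Of the named genes with the largest folds, those higher with THZ1 were Lars2, Lag3, Prm1, Ttll11, Baiap2, Ier5l, Map3k2, Zfp36l2, Tmem158, Zcchc3, Gpr62 and Tob1, with log2 folds of 3.10 to 5.25. Lag3, an inhibitory receptor best known from T cells, had 129.5 and 138 CPM with THZ1, 8.78 and 8.18 CPM with GDC-0449 and 7.72 and 7.78 CPM with DMSO (log2 fold 3.97 ± 0.082, edgeR adjusted p 6.1e-23). The kinase gene Map3k2 had 636 and 604 CPM with THZ1, 65.6 and 58.1 CPM with GDC-0449 and 61.5 and 58.9 CPM with DMSO (3.32 ± 0.050). Baiap2, an adaptor that links membranes to actin, had 306 and 317 CPM with THZ1, 27.3 and 28.8 CPM with GDC-0449 and 42.0 and 42.4 CPM with DMSO (3.48 ± 0.055). For Lag3 and Map3k2 the GDC-0449 and DMSO libraries lay in one low range and the THZ1 libraries far above it. For Baiap2 the GDC-0449 libraries lay below DMSO, and the THZ1 libraries far above both. Prm1, the protamine gene of sperm and one of those GDC-0449 lowered most, had 99.2 and 108 CPM with THZ1, 8.35 and 7.55 CPM with GDC-0449 and 24.7 and 22.3 CPM with DMSO, so here the compounds lay on opposite sides of vehicle under TMM, library size, ribosomal protein and mitochondrial scaling.

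Lars2, the mitochondrial leucyl-tRNA synthetase gene, had 6303 and 6206 CPM with THZ1, 189 and 139 CPM with GDC-0449 and 278 and 264 CPM with DMSO, the highest fold among named genes. It took 0.469% and 0.468% of counts with THZ1, 0.0218% and 0.0161% with GDC-0449 and 0.0319% and 0.0304% with DMSO. The gene model Gm26917, which holds ribosomal RNA-like sequence, was higher by a wider margin, at 5.72% and 5.84% of counts with THZ1, against 0.0209% and 0.0171% with GDC-0449 and 0.0184% and 0.0196% with DMSO. Whether these reads come from ribosomal RNA was not tested. Without both genes 6697 genes were called, 2930 higher and 3767 lower. The unnamed gene model CT010467.1 stayed in that fit. It had 12122 and 11773 CPM with THZ1, 429 and 322 CPM with GDC-0449 and 479 and 462 CPM with DMSO (log2 fold 4.99 ± 0.092).

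The 12 lower genes of largest fold were Pdzrn4, Pdzrn3, Srrm4os, Nadsyn1, Tti1, Serpinb8, Tab1, Btbd17, Cldn2, Ccdc14, Chst5 and Lrrc61, with log2 folds of -4.24 to -3.03. The limit of 5 CPM was on the mean of the 4 treated libraries, so such genes could pass through GDC-0449 alone. Counts with THZ1 were 8 and 5 for Pdzrn3, 6 and 8 for Nadsyn1 and 9 and 7 for Cldn2. These lie near the floor, so the sizes of their folds are uncertain. Pdzrn4 had 16.8 and 13.1 CPM with THZ1, 277 and 293 CPM with GDC-0449 and 233 and 228 CPM with DMSO. Its paralogue Pdzrn3, a ubiquitin ligase gene, had 0.954 and 0.662 CPM with THZ1, 15.8 and 14.2 CPM with GDC-0449 and 9.74 and 10.6 CPM with DMSO. Both stood far lower with THZ1, by 18.9-fold (edgeR adjusted p 3.5e-24) and 18.2-fold, while the GDC-0449 libraries lay above DMSO. The claudin gene Cldn2 differed in that respect, with 1.07 and 0.927 CPM with THZ1, 8.99 and 9.44 CPM with GDC-0449 and 20.8 and 19.1 CPM with DMSO, so both treatments lay below vehicle. Tab1, an activator of the kinase TAK1, had 2.62 and 2.38 CPM with THZ1, 23.6 and 27.5 CPM with GDC-0449 and 25.3 and 27.1 CPM with DMSO (-3.34 ± 0.18), and Nadsyn1, which makes NAD, had 0.716 and 1.06 CPM with THZ1, 11.4 and 11.4 CPM with GDC-0449 and 10.6 and 9.31 CPM with DMSO (-3.68 ± 0.27). Srrm4os is an antisense gene, and no source used here gives the strand setting of the counting, so its reads and those of its partner cannot be told apart.

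Tti1 belongs to the TTT complex, which helps PI3K-related kinases to fold. It had 20.5 and 19.7 CPM with THZ1, 214 and 211 CPM with GDC-0449 and 204 and 209 CPM with DMSO and was 10.6-fold lower with THZ1 (-3.40 ± 0.064, edgeR adjusted p 1e-23). Of 6 genes of these kinases and the TTT complex 5 were lower and 1 higher (median -0.57, 2 of 6 above the median gene). The DNA damage kinase genes Atr and Atm had log2 folds of -1.02 and -0.65, that of Mtor was -0.49 and that of Telo2, a subunit of the TTT complex, was -0.15. Smg1, the kinase of nonsense-mediated decay, was the higher one, with 1086 and 1081 CPM with THZ1, 334 and 351 CPM with GDC-0449 and 344 and 346 CPM with DMSO (1.66 ± 0.042, edgeR adjusted p 2.5e-21).

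Some of the named genes carry a TATA box letter run just upstream of their start. The motif searched was TATAA on the gene's own strand, lying wholly between 45 and 16 bases upstream, in RefSeq promoters of GRCm38.p6. It was found in 4.30% of genes in the highest quintile by log2 fold and 2.95% of the next quintile, and in 1.09% of the middle, 1.14% of the second and 1.14% of the lowest quintile. It stood in 2.09% of 5694 tested genes with a promoter entry and in 4.67% of all 27025 genes with one. The median GC content of the promoters was 64.0% in the highest fold quintile and 60.7% in the lowest. Core promoters of 6 such genes, 4 higher and 2 lower with THZ1, are printed from 50 bases upstream to 10 bases into the transcript, on the strand of the gene, to show the motif (in capitals) and its surroundings in both directions of change. Matches on a further autosome, if any, were left out of the print. The 6 are therefore no full count of matching named genes by direction. An entry was found for 109 of the 145 named genes. The 6 lie at chr16:10796814-10796873 (Prm1, minus strand), chr11:119943042-119943101 (Baiap2, plus strand), chr11:69758624-69758683 (Polr2a, minus strand), chr17:29093719-29093778 (Cdkn1a, plus strand), chrX:139800758-139800817 (Cldn2, plus strand) and chr11:114795883-114795942 (Btbd17, minus strand).
Prm1: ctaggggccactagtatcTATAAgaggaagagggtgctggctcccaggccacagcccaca
Baiap2: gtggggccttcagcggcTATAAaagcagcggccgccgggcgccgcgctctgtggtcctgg
Polr2a: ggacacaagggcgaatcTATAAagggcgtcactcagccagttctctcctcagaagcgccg
Cdkn1a: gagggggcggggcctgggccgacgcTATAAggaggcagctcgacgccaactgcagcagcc
Cldn2: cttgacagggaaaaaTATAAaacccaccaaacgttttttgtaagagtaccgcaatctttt
Btbd17: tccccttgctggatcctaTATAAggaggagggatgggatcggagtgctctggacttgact
The motif began 25 to 35 bases upstream in the 6. A match is a description and no measured binding site.

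Immediate early genes, whose transcripts are made within minutes of a stimulus and decay fast, stood higher with THZ1. Of 13, 12 were higher and 1 lower, with a median of 1.51 and 12 above the median gene. Ier5l had 177 and 194 CPM with THZ1, 18.6 and 17.5 CPM with GDC-0449 and 19.6 and 20.1 CPM with DMSO. Zfp36l2, which promotes decay of AU-rich messages, had 370.0 and 376 CPM with THZ1, 39.2 and 38.2 CPM with GDC-0449 and 47.4 and 47.7 CPM with DMSO. Tob1, an antiproliferative recruiter of the CCR4-NOT deadenylase, had 1293 and 1289 CPM with THZ1, 148 and 153 CPM with GDC-0449 and 118 and 121 CPM with DMSO. All 3 showed THZ1 libraries several times above GDC-0449 and DMSO, with log2 folds of 3.36 ± 0.070, 3.27 ± 0.049 and 3.10 ± 0.043 (edgeR adjusted p 6.7e-23, 4.7e-25 and 1.5e-25). Jun, Klf6 and Fosl1 had log2 folds of 1.51, 1.88 and 1.94. Btg2, an antiproliferative gene that p53 also induces, was the lower one, with 72.4 and 75.2 CPM with THZ1, 173 and 179 CPM with GDC-0449 and 149.9 and 149.9 CPM with DMSO (-1.26 ± 0.051, edgeR adjusted p 2.1e-17).

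Most measured genes of the p53 pathway list, which holds Trp53 and its regulators beside targets, were higher with THZ1 under TMM. Of 14 genes of the pathway 9 were higher, 3 lower and 2 not called, with a median of 1.26 (below 0 with mitochondrial scaling) and 11 above the median gene. Cdkn1a, which encodes the CDK inhibitor p21, had 67.3 and 73.4 CPM with THZ1, 18.4 and 17.3 CPM with GDC-0449 and 17.5 and 14.7 CPM with DMSO (1.97 ± 0.089, edgeR adjusted p 1.8e-16). The proapoptotic gene Bbc3 (PUMA) had 57.4 and 65.0 CPM with THZ1, 13.8 and 12.7 CPM with GDC-0449 and 8.94 and 10.1 CPM with DMSO. Pmaip1 (NOXA), proapoptotic as well, is listed with the BCL2 family only. It had 38.2 and 42.4 CPM with THZ1, 10.6 and 10.4 CPM with GDC-0449 and 12.3 and 12.8 CPM with DMSO. Both stood above GDC-0449 and DMSO, with log2 folds of 2.2 ± 0.099 and 1.94 ± 0.11, and Bax had one of 1.28. Trp53 itself was not called (log2 fold -0.040, 95% interval -0.15 to 0.069). Rrm2b, a ribonucleotide reductase subunit under p53, was lower (-1.07 ± 0.14), as was the p53 inhibitor gene Mdm4 (-0.28).

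Across the BCL2 family 4 of 10 were higher, 5 lower and 1 not called (median -0.26, 5 above the median gene). This was near the shares over all genes, 39.5% higher and 50.8% lower. Bid, which links death receptors to mitochondria, had 2.74 and 2.78 CPM with THZ1, 16.7 and 18.6 CPM with GDC-0449 and 17.6 and 19.2 CPM with DMSO and was 6.37-fold lower (-2.67 ± 0.19). It had only 23 and 21 counts with THZ1. Bmf (-1.30 ± 0.13), Bad (-0.90), Bak1 (-0.65) and the prosurvival Bcl2l2 (-0.45) were lower too, against Bbc3, Pmaip1, Bax and Bok on the higher side.

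Cell cycle genes were mostly lower with THZ1 than with GDC-0449. Among mitosis genes 21 of 26 were lower, 2 higher and 3 not called (median -0.53, 7 above the median gene). Together they took 0.276% and 0.281% of counts with THZ1, 0.699% in both GDC-0449 libraries, and 0.686% and 0.690% with DMSO. Knstrn, a spindle and kinetochore protein, had 28.4 and 26.2 CPM with THZ1, 134 and 129 CPM with GDC-0449 and 112 and 117 CPM with DMSO (-2.27 ± 0.068, edgeR adjusted p 6.4e-20), and the phosphatase gene Cdc25b, which activates CDK1, had 39.2 and 38.3 CPM with THZ1, 146 and 149 CPM with GDC-0449 and 141 and 133 CPM with DMSO (-1.93 ± 0.062, edgeR adjusted p 2e-19). In both the GDC-0449 libraries lay near DMSO and the THZ1 libraries far below. Foxm1, which drives transcription of mitotic genes, and Top2a had log2 folds of -1.47 and -1.27. Aurka, the spindle pole kinase, was higher (0.71 ± 0.056), with 134 and 127 CPM with THZ1, 78.6 and 81.1 CPM with GDC-0449 and 87.6 and 81.0 CPM with DMSO. The other gene called higher, Nuf2 (0.12 ± 0.046), lost its call without THZ1 replicate 1 (edgeR adjusted p 0.085) or GDC-0449 replicate 2 (0.078), in the fit of all 10 libraries (0.35) and with a minimum mean count of 100 (0.085). Cdc20, an activator of the anaphase-promoting complex, was not called (log2 fold -0.005, 95% interval -0.11 to 0.10).

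Replication and E2F genes showed 20 of 30 lower, 7 higher and 3 not called (median -0.64, 10 above the median gene). Rfc4, a subunit of the clamp loader, had 17.2 and 16.3 CPM with THZ1, 57.2 and 57.7 CPM with GDC-0449 and 69.2 and 67.3 CPM with DMSO (-1.78 ± 0.086, edgeR adjusted p 7.6e-16), and Mcm10, which helps to fire origins, had 22.5 and 22.9 CPM with THZ1, 70.1 and 67.1 CPM with GDC-0449 and 87.8 and 88.1 CPM with DMSO (-1.59 ± 0.078, edgeR adjusted p 9.4e-16). The MCM helicase split, with Mcm7 and Mcm3 higher (0.89 ± 0.040 and 0.44 ± 0.046), Mcm2 at 0.15, and Mcm6 and Mcm5 lower (-1.15 and -0.25). Tk1, Rrm2 and Tyms, which supply deoxynucleotides, were lower at -1.55, -1.32 and -0.77.

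Of the G1 cyclins, CDKs and Rb proteins 5 of 9 were lower, 2 higher and 2 not called (median -0.56, 4 above the median gene). Over all genes the shares were 50.8% lower and 39.5% higher. Besides Ccnd2, the Rb relative Rbl1 (-1.30 ± 0.044), the E cyclin genes Ccne2 (-0.88 ± 0.075) and Ccne1 (-0.81), and Cdk4 (-0.65) were lower. Both higher genes encode CDK inhibitors, Cdkn1a and Cdkn2d (1.19 ± 0.069). In the MYC network 5 of 9 were higher, 3 lower and 1 not called (median 0.14, below 0 by library size, upper quartile, FPKM, ribosomal protein and mitochondrial scaling; 6 above the median gene). Mxd1, a MAX partner that opposes MYC, had 143 and 148 CPM with THZ1, 34.1 and 31.3 CPM with GDC-0449 and 26.6 and 26.1 CPM with DMSO (2.15 ± 0.063, edgeR adjusted p 3.9e-20), and its relative Mxd3 went the other way with 23.1 and 25.6 CPM with THZ1, 64.1 and 65.9 CPM with GDC-0449 and 62.1 and 59.0 CPM with DMSO (-1.42 ± 0.080). Myc itself had a log2 fold of 1.26 and Mycl one of -0.91 ± 0.058.

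Repair genes had the lowest median of the lists shown by member in the plot of gene lists. Of 23 genes of homologous recombination and the Fanconi pathway 18 were lower, 2 higher and 3 not called (median -0.76, 5 above the median gene). Rad50, of the MRN complex that binds broken DNA ends, had 15.4 and 14.7 CPM with THZ1, 57.7 and 60.1 CPM with GDC-0449 and 67.4 and 66.3 CPM with DMSO. Its partner Nbn had 8.71 and 11.3 CPM with THZ1, 34.5 and 29.6 CPM with GDC-0449 and 40.7 and 42.7 CPM with DMSO. The THZ1 libraries of both were far below the GDC-0449 and DMSO libraries, with log2 folds of -1.97 ± 0.088 and -1.70 ± 0.13 (edgeR adjusted p 1.7e-16 and 5.1e-12). The third partner, Mre11a, was called higher at 0.15 ± 0.066, a call lost without THZ1 replicate 2 (edgeR adjusted p 0.26) or GDC-0449 replicate 1 or 2 (0.12 and 0.064), in the fit of all 10 libraries (0.16) and with a minimum mean count of 100 (0.11). Brca2, a central gene of homologous recombination, had a log2 fold of -1.58, Fancd2 had -1.15 and Brca1 -0.27. Bard1, the partner of BRCA1, was called higher (0.27 ± 0.079), but not without THZ1 replicate 2 (0.19, edgeR adjusted p 0.054) or in the fit of all 10 libraries (0.26, edgeR adjusted p 0.098).

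**Figure D3:**
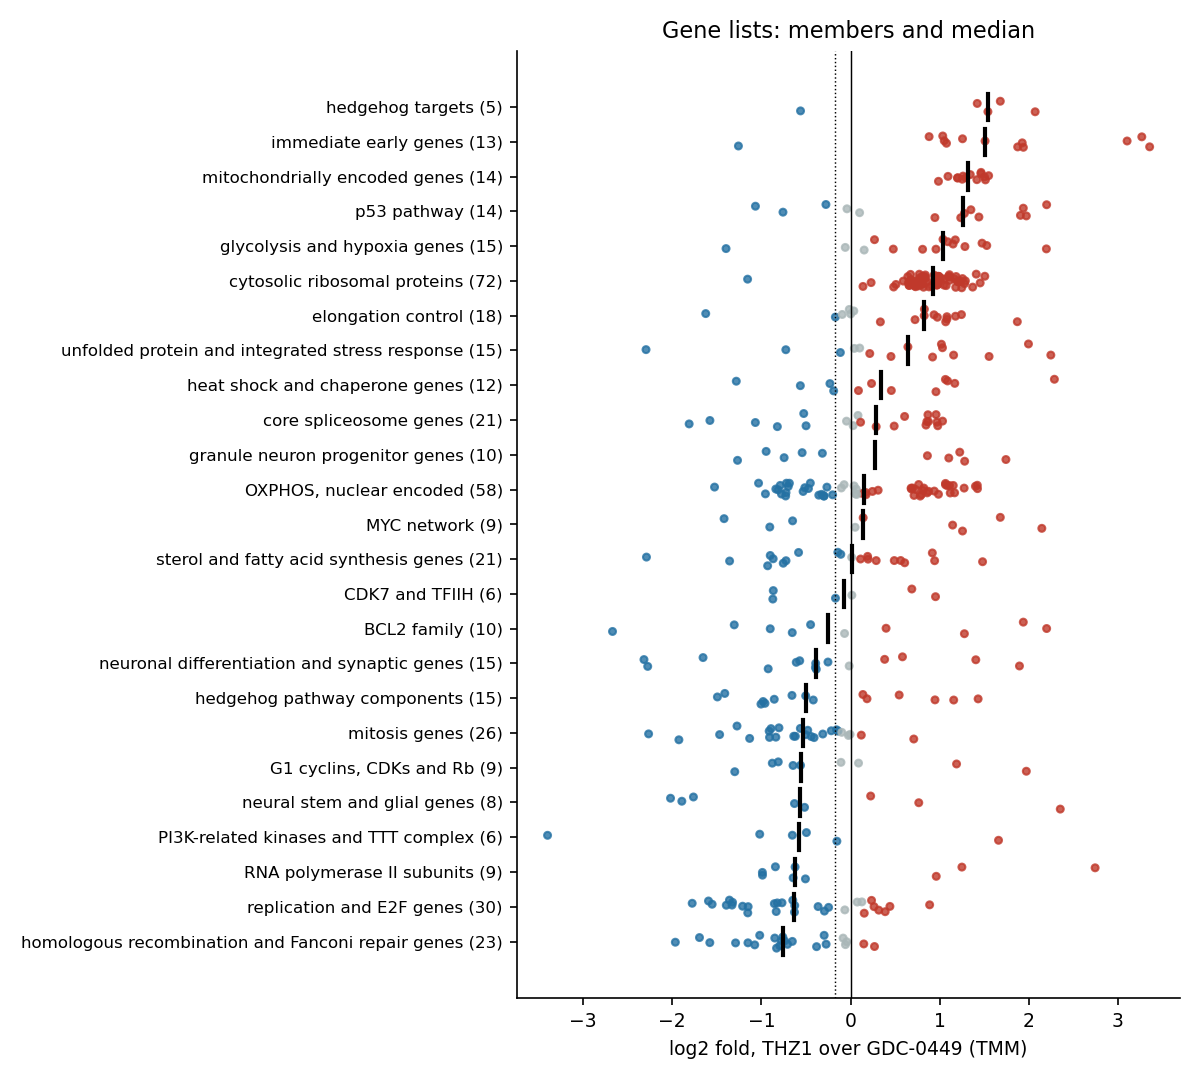
Log2 fold change of THZ1 over GDC-0449 under TMM for each member of 25 lists (points; red called higher, blue called lower, grey not called), with the list median as a black bar and the number measured in parentheses. The solid line marks 0 and the dotted line the median of all genes, -0.18. Hedgehog targets, immediate early genes and mitochondrially encoded genes have the highest medians, and homologous recombination and Fanconi repair genes the lowest. A shift of all genes by the scaling moves every point together, so medians near 0 change sign under other scalings, as do those of mitochondrially encoded, p53 pathway and glycolysis genes with mitochondrial scaling.

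Nearly all measured genes of the cytosolic ribosome, and all 14 measured genes of the mitochondrial genome, were higher with THZ1 under TMM. Of 72 cytosolic ribosomal protein genes 71 were higher with THZ1, with a median of 0.92 (below 0 with ribosomal protein and mitochondrial scaling) and 71 above the median gene. They took 7.13% and 6.63% of counts with THZ1, 5.57% and 5.39% with GDC-0449, and 5.63% and 5.40% with DMSO. Rplp0, of the ribosomal stalk, had 3175 and 2748 CPM with THZ1, 1061 and 1023 CPM with GDC-0449 and 1022 and 1054 CPM with DMSO (1.51 ± 0.057), and Rps2 5123 and 5120.5 CPM with THZ1, 1897 and 1839.5 CPM with GDC-0449 and 2271 and 2134 CPM with DMSO (1.46 ± 0.053). Rpl7l1, a paralogue of Rpl7, was the lower one, with 116 and 99.99 CPM with THZ1, 234 and 249 CPM with GDC-0449 and 274 and 280.0 CPM with DMSO (-1.16 ± 0.055, edgeR adjusted p 5.1e-16). Ribosomal protein genes have many processed pseudogenes, so counts of single members are uncertain.

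The 14 measured mitochondrially encoded genes had log2 folds of 0.99 to 1.55 and a median of 1.32 (-0.097 when scaled to their own counts). Their share was 8.00% and 6.94% of counts with THZ1, 4.43% and 4.23% with GDC-0449, and 3.95% in both DMSO libraries. The mitochondrial ribosomal RNA mt-Rnr2 had 8603 and 6932 CPM with THZ1, 2664 and 2644 CPM with GDC-0449 and 2456 and 2375 CPM with DMSO, and mt-Cytb, a subunit of complex III, 18327 and 15880.2 CPM with THZ1, 6144 and 5834 CPM with GDC-0449 and 5578 and 5479.9 CPM with DMSO. Nuclear genes of oxidative phosphorylation did not follow as one, since 30 of 58 were higher, 22 lower and 6 not called (median 0.15, below 0 by library size, upper quartile, FPKM, ribosomal protein and mitochondrial scaling; 36 above the median gene). Cox6a1 and Atp5e, small subunits of complex IV and the ATP synthase, were higher (1.43 ± 0.041 and 1.42 ± 0.048), and the assembly factor genes Ndufaf7 and Sdhaf2, which the list also holds, were lower (-1.53 ± 0.13 and -1.03 ± 0.11).

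**Figure D4:**
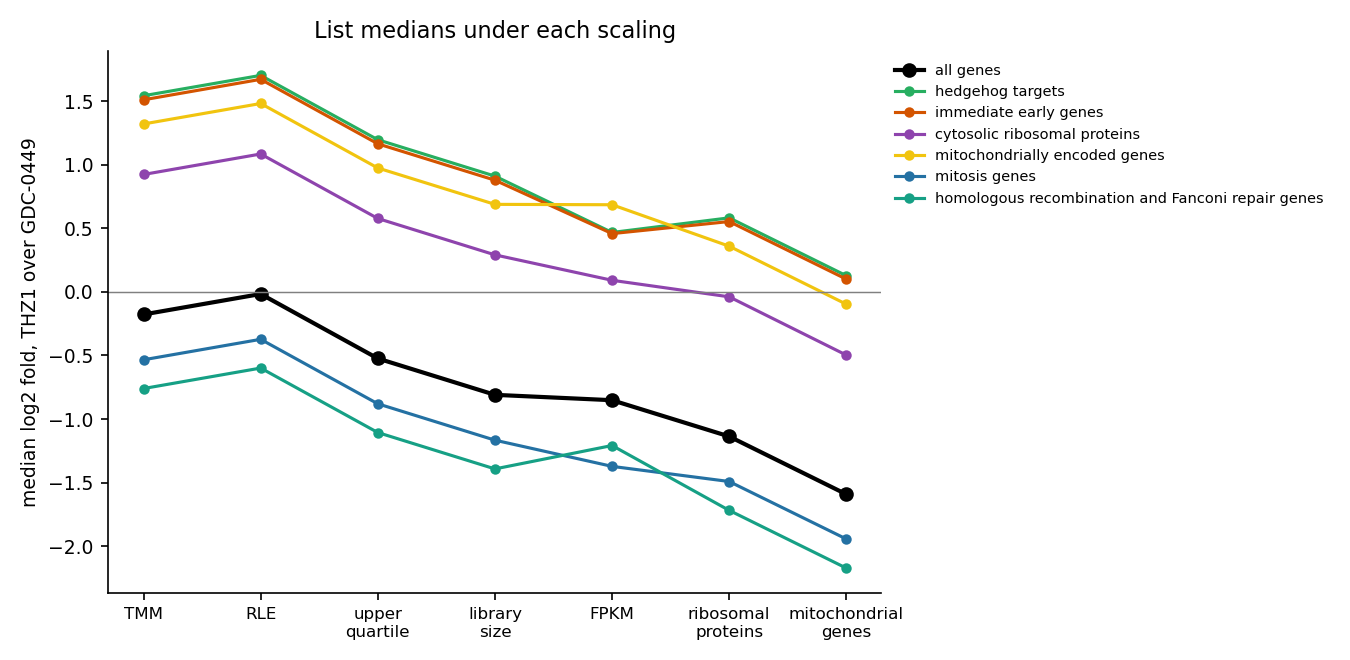
Median log2 fold change of THZ1 over GDC-0449 of all genes (black) and of 6 lists under 7 scalings, from TMM at left to mitochondrially encoded counts at right. Every list moves with the median of all genes, which is -0.18 under TMM and -1.59 with mitochondrial scaling. Hedgehog targets and immediate early genes stay above 0 throughout, cytosolic ribosomal proteins fall below 0 at the ribosomal protein and mitochondrial scalings and mitochondrially encoded genes at the last, and mitosis and repair genes stay below 0.

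Zinc finger genes named Zfp were the largest list and mostly lower. Of 191, 139 were lower, 43 higher and 9 not called (median -0.69, 53 above the median gene), with 59 at least 2-fold lower and 20 at least 2-fold higher. Zfp72 had 1.43 and 1.85 CPM with THZ1, 9.70 and 10.1 CPM with GDC-0449 and 8.01 and 7.99 CPM with DMSO (-2.60 ± 0.24), and Zfp90 2.03 and 1.72 CPM with THZ1, 9.92 and 11.2 CPM with GDC-0449 and 10.6 and 10.7 CPM with DMSO (-2.48 ± 0.23). Against these, Zfp280b had 428 and 435 CPM with THZ1, 72.5 and 74.0 CPM with GDC-0449 and 80.6 and 79.1 CPM with DMSO (2.56 ± 0.043) and Zfp367 232 and 240.4 CPM with THZ1, 56.0 and 57.5 CPM with GDC-0449 and 64.8 and 67.2 CPM with DMSO (2.06 ± 0.051). Zfp219 was not called (log2 fold -0.012, 95% interval -0.11 to 0.090). Members of this family share sequence, which the counting may split.

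Core spliceosome genes showed 12 of 21 higher, 6 lower and 3 not called (median 0.29, below 0 by library size, upper quartile, FPKM, ribosomal protein and mitochondrial scaling; 15 above the median gene). The lower ones included Prpf31, a protein of the U4/U6.U5 tri-snRNP, with 26.0 and 28.7 CPM with THZ1, 94.5 and 97.2 CPM with GDC-0449 and 103 and 106 CPM with DMSO. Prpf6, which bridges that particle, had 19.1 and 26.0 CPM with THZ1, 67.7 and 65.8 CPM with GDC-0449 and 71.0 and 67.9 CPM with DMSO. THZ1 libraries of both were far below the others, with log2 folds of -1.81 ± 0.072 and -1.58 ± 0.093 (edgeR adjusted p 1.7e-17 and 3.7e-14). The Sm protein gene Snrpg and the splice site factor U2af2 were the highest (1.03 ± 0.047 and 0.98 ± 0.043).

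Developmental genes of the lineage were divided, as were all genes (39.5% higher and 50.8% lower). Of 10 granule neuron progenitor genes 5 were higher and 5 lower (median 0.27, below 0 by library size, upper quartile, FPKM, ribosomal protein and mitochondrial scaling; 5 above the median gene). Zic4, Sox11, Zic1 and Atoh1, the factor that defines these progenitors, were higher (1.74 ± 0.041, 1.28 ± 0.045, 1.23 and 1.1). Barhl2, Cbln1, Barhl1, Lhx1 and Meis1 were lower (-1.27 ± 0.087, -0.95 ± 0.069, -0.74, -0.54 and -0.32). Zic4 had 539 and 525 CPM with THZ1, 154 and 164 CPM with GDC-0449 and 129.6 and 130.2 CPM with DMSO, and Barhl2 21.5 and 19.5 CPM with THZ1, 48.1 and 50.8 CPM with GDC-0449 and 41.7 and 42.2 CPM with DMSO. In the neuronal list 10 of 15 were lower, 4 higher and 1 not called (median -0.39, 5 above the median gene). Elavl4, a neuronal RNA-binding protein gene, had 8.11 and 7.28 CPM with THZ1, 39.2 and 35.5 CPM with GDC-0449 and 28.1 and 27.8 CPM with DMSO (-2.28 ± 0.12, edgeR adjusted p 5.7e-15), and Snap25, of the synaptic fusion machinery, a log2 fold of -1.66. Nhlh2 and Hpca were the higher ones of largest fold (1.41 ± 0.057 and 1.90 ± 0.050), and Gap43 was not called (log2 fold -0.015, 95% interval -0.10 to 0.072).

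Of 8 neural stem and glial genes 5 were lower and 3 higher (median -0.57, 3 above the median gene). Over all genes 50.8% were lower and 39.5% higher. Slc1a3, the glutamate transporter GLAST, had 14.8 and 13.5 CPM with THZ1, 49.5 and 56.1 CPM with GDC-0449 and 48.2 and 48.8 CPM with DMSO (-1.89 ± 0.099, edgeR adjusted p 3.9e-15), and Cspg4 (NG2) had 3.46 and 2.78 CPM with THZ1, 13.3 and 12.2 CPM with GDC-0449 and 16.4 and 16.7 CPM with DMSO (-2.02 ± 0.19). Beside Sox9, the intermediate filament gene Nes was higher (0.77 ± 0.043). In bulk libraries fewer cells of a type and less RNA per cell cannot be told apart.

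Stress and metabolic lists held strong differences both ways. Glycolysis and hypoxia genes were higher in 12 of 15 cases, lower in 1 and not called in 2 (median 1.04, below 0 with mitochondrial scaling; 14 above the median gene). Egln3, a hypoxia-induced prolyl hydroxylase gene, had 36.4 and 37.6 CPM with THZ1, 7.71 and 8.42 CPM with GDC-0449 and 13.8 and 12.5 CPM with DMSO (2.2 ± 0.12, edgeR adjusted p 6e-15), and the angiogenic factor gene Vegfa had 214 and 211 CPM with THZ1, 72.1 and 75.2 CPM with GDC-0449 and 83.3 and 81.7 CPM with DMSO (1.53 ± 0.049). The neuronal glucose transporter gene Slc2a3 was the lower one, with 8.71 and 9.54 CPM with THZ1, 24.3 and 23.7 CPM with GDC-0449 and 25.5 and 26.0 CPM with DMSO (-1.40 ± 0.13).

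In the unfolded protein and integrated stress response 10 of 15 were higher, 3 lower and 2 not called (median 0.64, below 0 with FPKM, ribosomal protein and mitochondrial scaling; 13 above the median gene). Ppp1r15a (GADD34), the phosphatase subunit that ends the response, had 65.0 and 67.7 CPM with THZ1, 14.7 and 13.1 CPM with GDC-0449 and 12.3 and 13.6 CPM with DMSO (2.25 ± 0.091), and Ern1, the sensor IRE1, had 202 and 209 CPM with THZ1, 48.6 and 54.5 CPM with GDC-0449 and 57.4 and 56.1 CPM with DMSO (2.00 ± 0.057). Xbp1, the message that IRE1 splices, had 10.0 and 10.6 CPM with THZ1, 51.8 and 49.2 CPM with GDC-0449 and 45.9 and 50.1 CPM with DMSO (-2.29 ± 0.10, edgeR adjusted p 2.2e-16), so sensor and substrate stood on opposite sides.

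Heat shock and chaperone genes were higher in 8 of 12 cases and lower in 4 (median 0.35, below 0 by library size, FPKM, ribosomal protein and mitochondrial scaling; 8 above the median gene). Bag3, a co-chaperone gene, had 30.5 and 37.3 CPM with THZ1, 7.49 and 6.29 CPM with GDC-0449 and 8.87 and 10.1 CPM with DMSO (2.29 ± 0.14), and the constitutive chaperone gene Hspa8 had 809 and 789 CPM with THZ1, 1983 and 1905 CPM with GDC-0449 and 2248 and 2246 CPM with DMSO (-1.28 ± 0.048). Sterol and fatty acid synthesis genes were even, with 10 of 21 higher, 10 lower and 1 not called and a median of 0.013, whose sign changed with most scalings (13 above the median gene). The shares over all genes were 39.5% higher and 50.8% lower. Fdps was the highest (1.48 ± 0.14, but -0.55 on FPKM) and Nsdhl the lowest, with 9.54 and 10.5 CPM with THZ1, 50.4 and 47.1 CPM with GDC-0449 and 47.9 and 51.1 CPM with DMSO (-2.29 ± 0.11, edgeR adjusted p 2.8e-16).

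Gene structure and vehicle level went with the direction of the difference. Among 7076 protein-coding genes with a GENCODE vM21 model, matched by ID, the 118 with a single exon had a median log2 fold of 1.02, with 61.9% called higher and 33.9% lower. Genes of 6 to 10 exons (2188) had a median of -0.30, with 35.2% higher and 55.2% lower. The difference between these medians was 1.32, with an SD of 0.0236 over 2 pairs of a THZ1 and a GDC-0449 library, matched by replicate number only. Such an SD describes the likeness of the libraries and not the spread among genes. Genes of 21 or more exons had a median of -0.042. Single-exon genes stood apart at both levels of vehicle expression, with medians of 0.92 above the median DMSO level and 1.07 at or below it. The 118 include protein-coding genes of the mitochondrial genome, such as mt-Cytb. All 14 measured mitochondrially encoded genes were higher with THZ1, with log2 folds of 0.99 to 1.55. Their part in the single-exon medians was not tested.

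By quintiles of DMSO level the median fold climbed from the lowest to the highest, at -0.65, -0.43, -0.21, -0.034 and 0.38. The deposited GDC-0449 table holds no gene with a mean count below 79.5 over its GDC-0449 and DMSO libraries. A gene below that level is absent even if THZ1 raises it, while a gene above it stays even if THZ1 lowers it. The part of this floor in the climb was not tested. The share called higher was 27.8% in the lowest quintile and 59.5% in the highest, and the share called lower 65.1% and 30.5%. The medians of the extreme quintiles differed by 1.04, with an SD of 0.0096 over the same 2 library pairs. By genomic span the medians of the quintiles lay between -0.31 and 0.096, the longest genes having the highest. All scalings of whole libraries shift these medians together and leave their differences.

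**Figure D5:**
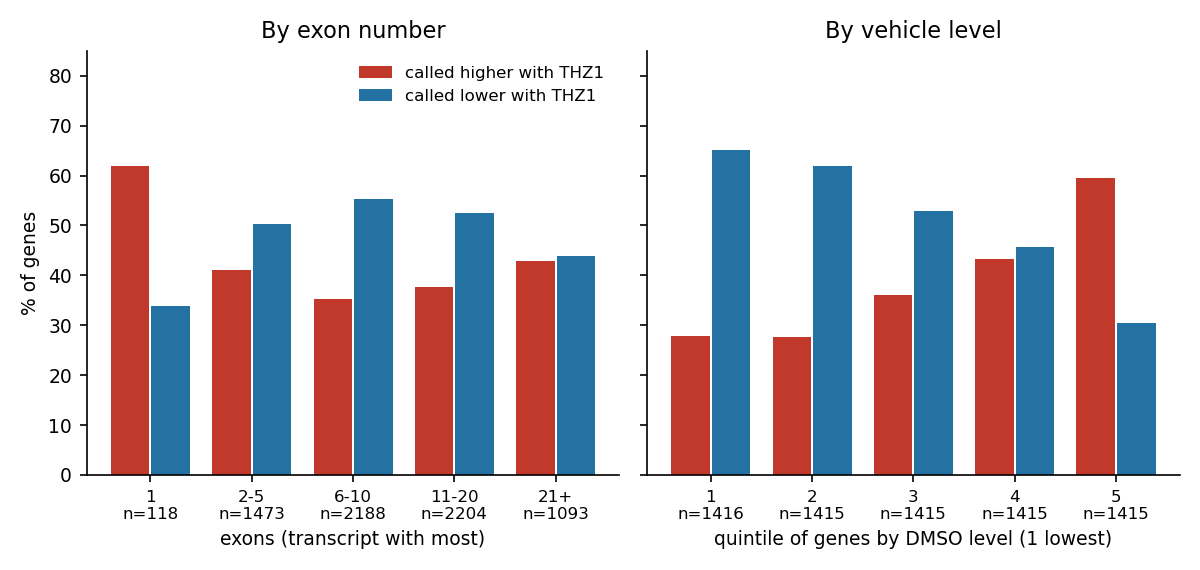
Percent of protein-coding genes called higher (red) or lower (blue) with THZ1 than with GDC-0449, by exon number of the transcript with most exons (left) and by quintile of DMSO level (right), with the number of genes under each class. Single-exon genes and the highest quintile by DMSO level have more genes called higher than lower under TMM. The single-exon class includes protein-coding genes of the mitochondrial genome. With library size, ribosomal protein or mitochondrial scaling the shares called higher are smaller over all genes. Genes with a mean count below 79.5 over the GDC-0449 and DMSO libraries are absent from all classes.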

How the data were processed

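RNA levels in SMB56 cells were measured by RNA-seq; per the labels' protocols, RNA was extracted after Trizol lysis and libraries were made with an Illumina TruSeq kit. STAR (2.5.3a), DESeq2 (1.20.0), Cufflinks (2.2.1) and the build hg19 stand in the submitters' processing notes, without their roles; the IDs are mouse Ensembl IDs, so no coordinates were taken from the tables. The columns used as raw counts are called counts per the file headers, and the authors deposited FPKM values and their own p-values beside them. The adjusted p-values in the authors' deposited table were used only to see how the genes had been selected. The DMSO counts of the tables were identical (0 differed). Of 15 symbols turned into dates or left blank, 12 were recovered by ID.

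Counts of the 6 SMB56 libraries over the 7417 shared genes were fitted with edgeR 4.0.16 in R 4.3.3 (limma 3.58.1), using TMM, filterByExpr, which all genes passed, 1 coefficient per group and the quasi-likelihood F test, with 3 residual degrees of freedom. TMM factors were 0.744 and 0.754 for THZ1, 1.16 for both GDC-0449 libraries, and 1.15 for both DMSO libraries. The call threshold was 0.05 for the p-value of that test, adjusted by Benjamini and Hochberg across the 7417 genes. Errors beside log2 folds are standard errors, and each group has n = 2. Chi-square values between replicates were 4.14 per gene with THZ1, 1.90 with GDC-0449 and 1.91 with DMSO, so no pair held the same counts. On simulated data for this comparison over 7417 genes, 50 of 50 genes changed by a log2 of -1, 44 of 50 by -0.5, 49 of 50 by 0.5 and 50 of 50 by 1 were called. These simulated counts gave all groups the same levels outside the changed genes, with as many raised as lowered, so TMM's assumption held in them. Their recovery says nothing about the direction of calls here, where 6699 of 7417 genes differed.

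Named genes were set by rule: 12 pathway and target genes (8 measured); the 12 higher and 12 lower named genes of largest fold among called genes with a mean of at least 5 CPM over the treated libraries and non-overlapping groups, passing over unnamed gene models; from each list up to 2 higher, up to 2 lower and the 1 not called closest to 0; and both lists from earlier GDC-0449 results. Genes lower with THZ1 could meet the limit of 5 CPM through their GDC-0449 level alone. Other list members, Gm26917 and CT010467.1 were named after their values were seen. The members, the 28 lists and the tests were chosen with earlier results of these data known. Alternatives were other normalizations, scaling to ribosomal protein or mitochondrially encoded counts, leaving out Gm26917 and Lars2, other filters and sample sets, each library left out, a replicate block, DESeq2 1.42.0, and limma on log2(FPKM + 1). Exon numbers came from GENCODE vM21 and promoters from RefSeq (GRCm38.p6). Some genes of the lists are not reported here by name.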

Additional observations from a re-analysis of the deposited data

How the results depend on the processing

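The split by direction moved most with the scaling. The 2932 genes called higher and 3767 lower (43.8% of calls higher) became 357 and 6360 (5.31%) with mitochondrial scaling, 1119 and 5365 (17.3%) with ribosomal protein scaling and 2090 and 4853 (30.1%) by library size. On FPKM, where the measure, the pseudocount and the test changed together, they were 1365 and 5008 (21.4%). Upper-quartile, RLE and DESeq2 counts of called genes were 7225, 6483 and 6161, and the fit of all 10 libraries, with a common biological coefficient of variation of 8.62% against 2.78%, called 5969 of 7244. Without one library at a time 6492 to 6671 genes were called, 2884 to 2920 higher and 3596 to 3751 lower, the lone library of a group being assumed to vary like the others. The cause of these shifts was not tested. Of 145 named genes, the following log2 folds (THZ1 over GDC-0449) took the opposite sign. By library size, 14 values changed sign: Ppfia2 -0.085, Tbata -0.17, Mcm3 -0.19, Bard1 -0.36, Mre11a -0.48, Nuf2 -0.51, Rbl2 -0.54, Mga -0.58, Herpud1 -0.59, Atp5g2 -0.59, Sf3b2 -0.60, Cdk7 -0.62, Elovl6 -0.62 and Larp7 -0.63. By the upper quartile, 11 values changed sign: Bard1 -0.077, Mre11a -0.20, Nuf2 -0.23, Rbl2 -0.26, Mga -0.29, Herpud1 -0.30, Atp5g2 -0.31, Sf3b2 -0.32, Cdk7 -0.33, Elovl6 -0.33 and Larp7 -0.34. By RLE, 5 values changed sign: Cdc20 0.16, Zfp219 0.15, Gap43 0.15, Trp53 0.12 and Hrk 0.094. With mitochondrial scaling, 33 values changed sign: Nhlh2 -0.008, Adamts14 -0.067, Sox11 -0.13, Polr2d -0.16, Ccnt1 -0.17, Lrp8 -0.17, Cdkn2d -0.23, Dnajb4 -0.25, Prkar1a -0.25, Rgma -0.36, Snrpg -0.38, U2af2 -0.43, Ercc3 -0.45, Scd2 -0.46, Mcm7 -0.52, Nes -0.65, Ifi30 -0.67, Aurka -0.71, Gtf2h1 -0.72, Ppfia2 -0.87, Tbata -0.96, Mcm3 -0.97, Bard1 -1.14, Mre11a -1.26, Nuf2 -1.29, Rbl2 -1.32, Mga -1.36, Herpud1 -1.38, Atp5g2 -1.37, Sf3b2 -1.38, Cdk7 -1.40, Elovl6 -1.40 and Larp7 -1.41. With ribosomal protein scaling, 21 values changed sign: Ercc3 -0.001, Scd2 -0.011, Mcm7 -0.069, Nes -0.19, Ifi30 -0.21, Aurka -0.25, Gtf2h1 -0.27, Ppfia2 -0.41, Tbata -0.50, Mcm3 -0.51, Bard1 -0.69, Mre11a -0.81, Nuf2 -0.84, Rbl2 -0.87, Mga -0.91, Herpud1 -0.92, Atp5g2 -0.92, Sf3b2 -0.93, Cdk7 -0.95, Elovl6 -0.95 and Larp7 -0.95. In DESeq2, 4 values changed sign: Cdc20 0.16, Zfp219 0.15, Gap43 0.15 and Hrk 0.094. On log2(FPKM + 1) with limma, 19 values changed sign: Fdps -0.55, Nes -0.10, Ifi30 -0.10, Aurka -0.10, Gtf2h1 -0.16, Ppfia2 -0.20, Tbata -0.022, Mcm3 -0.35, Bard1 -0.40, Mre11a -0.71, Nuf2 -0.70, Rbl2 -0.71, Mga -0.76, Herpud1 -0.75, Atp5g2 -0.78, Sf3b2 -0.82, Cdk7 -0.77, Elovl6 -0.74 and Larp7 -0.84. The replicate numbers did not pair the libraries (correlations of deviations 0.051 for THZ1 with GDC-0449, 0.000 for THZ1 with DMSO and 0.115 for GDC-0449 with DMSO), and a fit with the replicate block called 6708 genes, 2937 higher and 3771 lower. Without a filter 6699 genes were called, as all passed it, and 6520 of 7177 with a mean count of at least 100. In the 4 treated libraries alone 6671 were called.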
